A study of Mus musculus with 2 samples.

Results

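The genes that display peptides and lipids to lymphocytes were followed in a pair of mouse liver transcriptomes. They were taken by name: every gene symbol that begins with H2-, without the symbols marked -ps, plus B2m, Tap1, Tap2, Tapbp, Tapbpl, Erap1, Nlrc5, Ciita, Cd74 and Cd1d1. The rule gave 51 genes of the 35272 gene symbols measured, and used no expression value. By role they comprised 2 classical class I heavy chains, 26 nonclassical class I symbols, 9 class II symbols, 8 genes of the class I pathway, 2 genes of the class II pathway and 4 other H2- symbols. On chromosome 17, which carries the mouse major histocompatibility complex (MHC), lay 44 of them.

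RNA sequencing had been done on 2 livers of C57BL/6 mice aged 10 months, 1 library per genotype. The library labelled LTsc1KO came from a mouse whose genotype is given as TSC1-/-, described in the series as a knockout of Tsc1 in the liver that raises mTORC1 activity and leads to hepatocellular carcinoma. The other library is labelled wild type (WT). The series text speaks of tumours and the sample labels of liver, so it is unknown whether tumour or surrounding tissue was taken. The sources used here name neither the sex of the mice nor the Cre driver.

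Values are FPKM, reads scaled by transcript length and library total. Reads recovered from them summed to 29351163 in the library labelled LTsc1KO and 27919645 in the library labelled WT. Because each genotype has a single library, differences have no replicate check and no p-value, and genotype cannot be told apart from the individual animal. Tsc1 stood at 4.79 FPKM in the library labelled LTsc1KO and 4.90 in the library labelled WT (ratio 0.976, interval 0.868 to 1.10), so its level, summed over the whole gene, did not check the labels. Ratios of single genes are given as log2((FPKM + 1)/(FPKM + 1)), LTsc1KO over WT. A gene was called expressed when either library reached an FPKM of 1. It was called higher or lower when the ratio passed 1 or -1 on the log2 scale, a limit of 2-fold. Folds are ratios of FPKM without the added 1, and their intervals are 95% exact binomial intervals on reads, which cover counting error only.

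Of 12395 expressed genes 35.6% were called higher and 6.15% lower, with a median log2 ratio of 0.70; with both libraries set to equal FPKM totals the shares were 42.4% and 5.32%. A further scale sets to 0 the median ratio of genes that reach an FPKM of 1 in each library, which takes 0.72 off the log2 ratio of abundant genes. On that scale 15.6% of 11851 expressed genes were higher and 12.7% were lower. These shares are the background, on each scale, for every count of called genes below. The further scale is called the centred scale here and is given for genes of the set whose direction it changes. For calls the centred scale is given by gene or by count, except for the counts along the MHC region. Markers of skeletal muscle differed as well: all 9 were lower, summing to 2.61 FPKM there and 3589 FPKM in the library labelled WT. Their part in the results was not tested.

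Class I molecules sit on nearly all nucleated cells and show peptides from the cell's own proteins to CD8 T cells. Each is a heavy chain (classical H2-K1 and H2-D1, or a nonclassical relative) held together with beta-2 microglobulin, the product of B2m. Peptides are cut by the proteasome, carried into the endoplasmic reticulum by the transporter TAP and fitted by chaperones. Class II molecules pair an alpha and a beta chain, travel with the invariant chain Cd74 to endosomes, receive peptides of ingested proteins there and show them to CD4 T cells. They are typical of dendritic cells, B cells and macrophages, and in liver of Kupffer cells and other nonparenchymal cells, whereas resting hepatocytes carry little or none.

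Both classes share a promoter design known from earlier work, an S-X-Y module. Its X1, X2 and Y boxes bind RFX, CREB/ATF and NF-Y proteins and recruit NLRC5 at class I genes or CIITA at class II genes. Class I promoters also hold an interferon response element, and their enhancer A holds a kappa B site. The 250 bases before the RefSeq start (build GRCm38.p6) are shown for 6 genes that the results turn on: the classical heavy chain H2-K1 (chr17:34000348-34000597, minus strand), the nonclassical heavy chains H2-Q7 (chr17:35438905-35439154, plus) and H2-Q10 (chr17:35469839-35470088, plus), which lie close together but differed in direction, the light chain gene B2m (chr2:122147437-122147686, plus), and the class II chains H2-Aa (chr17:34287824-34288073, minus) and H2-Eb1 (chr17:34305617-34305866, plus). The last base of the B2m window is annotated as exon, and 88 bases of the H2-Eb1 window overlap an annotated exon of another gene. Capitals mark matches, on either strand, to the letters AGCAACNGA (X1 core), TGACG (X2 site), CCAAT (Y box), GGGATTCCC (kappa B site) and AANNGAAA (interferon response element). In H2-Aa the X2 letters match on both strands and those matches overlap.
H2-K1: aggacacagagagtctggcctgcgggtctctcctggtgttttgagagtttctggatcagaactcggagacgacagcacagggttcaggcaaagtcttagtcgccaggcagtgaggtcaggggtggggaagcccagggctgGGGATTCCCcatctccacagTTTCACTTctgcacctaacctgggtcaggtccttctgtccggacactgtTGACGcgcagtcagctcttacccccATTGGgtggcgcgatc
H2-Q7: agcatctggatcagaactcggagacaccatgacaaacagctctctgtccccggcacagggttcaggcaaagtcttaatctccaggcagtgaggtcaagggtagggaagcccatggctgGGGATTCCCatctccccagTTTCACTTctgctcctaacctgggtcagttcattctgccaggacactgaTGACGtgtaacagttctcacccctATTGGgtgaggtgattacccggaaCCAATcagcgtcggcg
H2-Q10: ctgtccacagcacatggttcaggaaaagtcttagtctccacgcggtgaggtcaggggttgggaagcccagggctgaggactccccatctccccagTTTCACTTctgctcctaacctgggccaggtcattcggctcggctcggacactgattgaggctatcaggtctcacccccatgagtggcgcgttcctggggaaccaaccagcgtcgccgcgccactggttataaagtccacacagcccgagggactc
B2m: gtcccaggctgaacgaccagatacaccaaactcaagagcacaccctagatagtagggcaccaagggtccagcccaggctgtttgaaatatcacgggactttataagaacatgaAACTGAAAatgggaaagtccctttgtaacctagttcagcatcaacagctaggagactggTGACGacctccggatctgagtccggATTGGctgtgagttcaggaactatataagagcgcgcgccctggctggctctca
H2-Aa: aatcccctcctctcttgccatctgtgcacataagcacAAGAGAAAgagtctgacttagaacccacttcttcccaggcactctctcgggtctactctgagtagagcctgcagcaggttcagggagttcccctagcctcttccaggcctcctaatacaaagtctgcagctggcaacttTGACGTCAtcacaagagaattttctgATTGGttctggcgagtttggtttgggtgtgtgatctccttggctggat
H2-Eb1: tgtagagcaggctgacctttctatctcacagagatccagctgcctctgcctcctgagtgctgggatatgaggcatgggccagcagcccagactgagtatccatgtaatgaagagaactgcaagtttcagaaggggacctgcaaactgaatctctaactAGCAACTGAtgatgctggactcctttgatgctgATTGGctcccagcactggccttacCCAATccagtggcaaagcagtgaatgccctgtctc

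Windows of this length were at hand for 35 of the 51 genes, among 27025 windows of all genes. The kappa B letters occurred in 85 windows of all (0.315%), and 4 of those belonged to H2-K1, H2-D1, H2-Q6 and H2-Q7. The CCAAT letters were in 30 of 35 windows, against 34.5% of all windows. The interferon letters were in 18 of 35, against 21.6% of all, and the X2 letters in 14 of 35, against 17.8% of all. Class I windows held most of these: 2 of 2 classical and 12 of 20 nonclassical windows had the interferon letters, and 2 and 9 had the X2 letters. Of 8 class II windows 2 had the interferon letters and 1 the X2 letters. The X1 core was in 2 of 8 class II windows, those of H2-Eb1 and H2-Eb2, against 1.06% of all. The H2-Q7 window matched the kappa B, X2, Y and interferon letters, while the H2-Q10 window matched the interferon letters alone. A match describes letters and is not evidence of binding, and many of these genes arose by duplication, so their windows are not independent.

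Class II genes and Cd74 had the largest ratios among the groups. Above 0 in at least 1 library were 38 of the 51 genes, and 30 were expressed, 27 of them in both libraries and 3 (H2-Q2, H2-Bl and H2-M2) through the library labelled LTsc1KO alone. On the deposited scale 17 of the 30 were higher (56.7%, against 35.6% of all expressed genes), with a median of 1.07. There 1 (H2-Q10) was lower and 12 lay between. On the centred scale 10 were higher, 2 (H2-Q10 and Cd1d1) were lower and the median was 0.42. Of all expressed genes 15.6% were higher and 12.7% lower on that scale. With equal FPKM totals 18 were higher and 1 was lower, against 42.4% and 5.32% of all. The set was not uniform, because 5 of 5 expressed class II genes and Cd74 were higher on both scales, while neither classical heavy chain was on either.

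**Figure D1:**
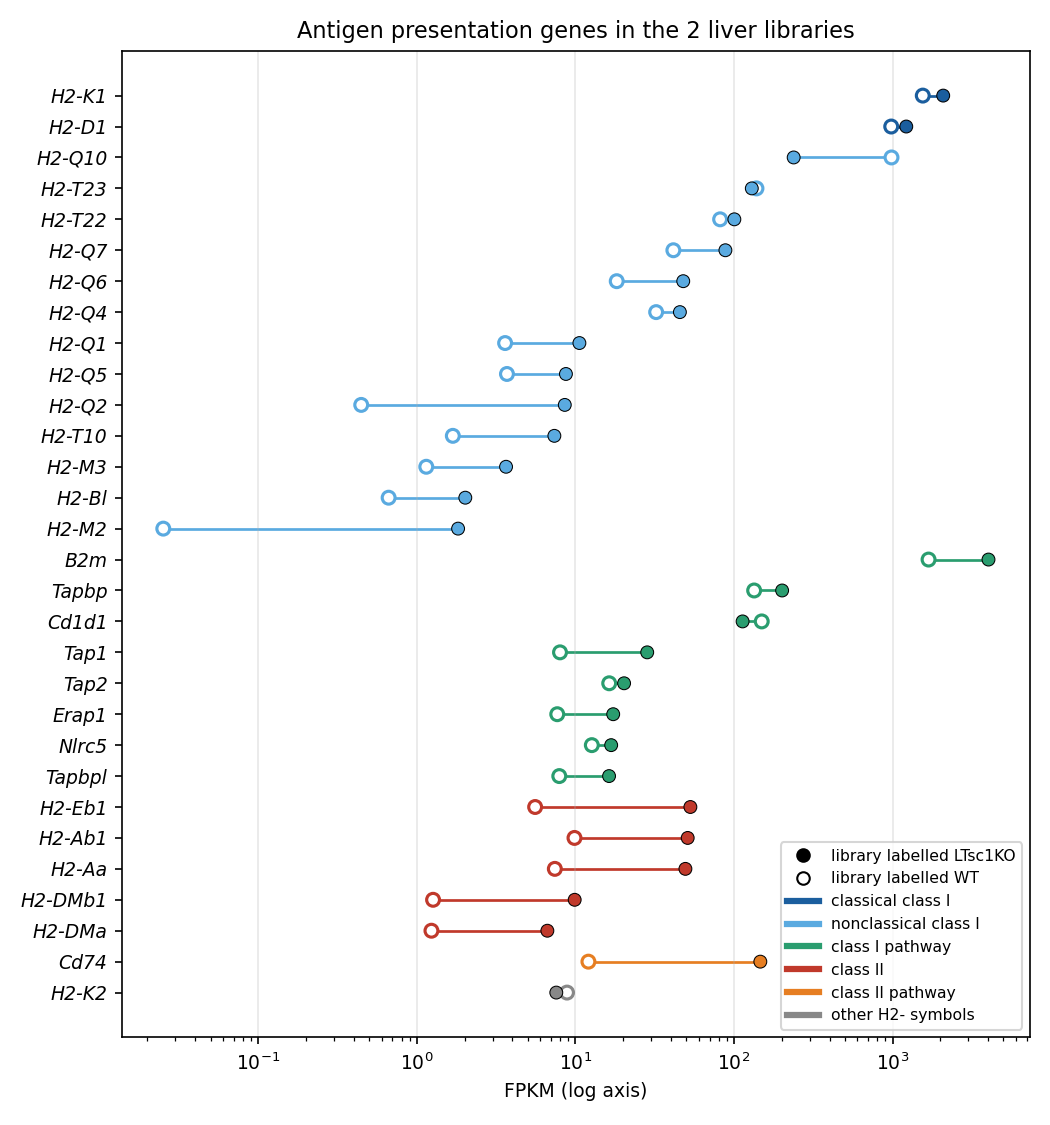
FPKM (log axis) of the 30 expressed genes in the library labelled LTsc1KO (filled points) and the library labelled WT (open points), coloured by role. H2-Q10 has the longest line that runs toward the library labelled WT, at 238 and 984 FPKM, and the class II genes and Cd74 all run toward the library labelled LTsc1KO.

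The 3 expressed class II peptide-binding chains were higher in the library labelled LTsc1KO, where they reached nearly equal FPKM. Levels of different genes depend on the transcript length used for each, which is not known for these 3 chains. H2-Eb1, a beta chain, stood at 53.0 FPKM (1843 reads) in the library labelled LTsc1KO and 5.57 FPKM (184 reads) in the library labelled WT, 9.53-fold higher (interval 8.18 to 11.2; log2 ratio 3.04). H2-Aa, the alpha chain of I-A, stood at 49.3 FPKM (2114 reads) in the library labelled LTsc1KO and 7.41 FPKM (302 reads) in the library labelled WT, 6.66-fold higher (5.90 to 7.54; log2 ratio 2.58). H2-Ab1, the I-A beta chain, stood at 51.0 FPKM (1175 reads) in the library labelled LTsc1KO and 9.86 FPKM (216 reads) in the library labelled WT, 5.17-fold higher (4.47 to 6.01; log2 ratio 2.26). The interval of H2-Eb1 did not overlap those of the I-A chains. C57BL/6 mice lack a working I-E alpha chain, so H2-Eb1 has no classical partner in this strain, and its transcript was present all the same. The ratio of H2-Eb1 to H2-Ab1, which no scaling of a library can change, was 1.04 in the library labelled LTsc1KO and 0.565 in the library labelled WT. The ratio of H2-Aa to H2-Ab1 was 0.967 in the library labelled LTsc1KO and 0.752 in the library labelled WT.

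H2-DM, made of H2-DMa and H2-DMb chains, removes the invariant chain peptide and edits what class II binds. H2-DMb1 was at 9.88 FPKM (304 reads) in the library labelled LTsc1KO and 1.26 FPKM (37 reads) in the library labelled WT, 7.82-fold higher (5.54 to 11.3; log2 ratio 2.26). H2-DMa was at 6.65 FPKM (215 reads) in the library labelled LTsc1KO and 1.24 FPKM (38 reads) in the library labelled WT, 5.38-fold higher (3.80 to 7.81; log2 ratio 1.77). Both DM chains differed in the same direction and by intervals that overlap. H2-DMb2, a copy with which H2-DMb1 shares 22.7% of its 50-base words, was below the minimum at 0.662 FPKM (21 reads) in the library labelled LTsc1KO and 0.166 FPKM (5 reads) in the library labelled WT. Exons of H2-DMa overlap those of Brd2 on the other strand over 10.4% of their length, and without a stated strand such reads cannot be told apart. Brd2 was at 63.8 FPKM in the library labelled LTsc1KO and 44.9 FPKM in the library labelled WT.

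H2-Oa and H2-Ob form H2-DO, which restrains H2-DM and is best known from B cells. H2-Ob was at 0.355 FPKM in the library labelled LTsc1KO and 0.373 FPKM in the library labelled WT, with 17 reads in each. H2-Oa had 5 reads in the library labelled LTsc1KO and 4 reads in the library labelled WT. H2-Eb2 was at 0.0617 FPKM in the library labelled LTsc1KO and was listed at 0 in the library labelled WT. These genes of class II stayed below the minimum in both libraries, so the DM genes were seen without an expressed DO gene.

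Cd74, the invariant chain, was the gene of the set with the highest called log2 ratio. It was at 146 FPKM (5690 reads) in the library labelled LTsc1KO and 12.1 FPKM (446 reads) in the library labelled WT, 12.1-fold higher (11.02 to 13.4; log2 ratio 3.50). A lower ratio than that of Cd74 was found in 98.2% of expressed genes, against 97.2% for H2-Eb1 and 93.5% for H2-Ab1. Relative to the summed FPKM of H2-Aa, H2-Ab1 and H2-Eb1, Cd74 was at 0.955 in the library labelled LTsc1KO and 0.529 in the library labelled WT. Ciita, the master regulator of class II transcription, was scarce in both libraries. It was at 0.545 FPKM (63 reads) in the library labelled LTsc1KO and 0.0273 FPKM (3 reads) in the library labelled WT, a ratio of 19.98 (6.53 to 99.5) that fell under the expression minimum.

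**Figure D2:**
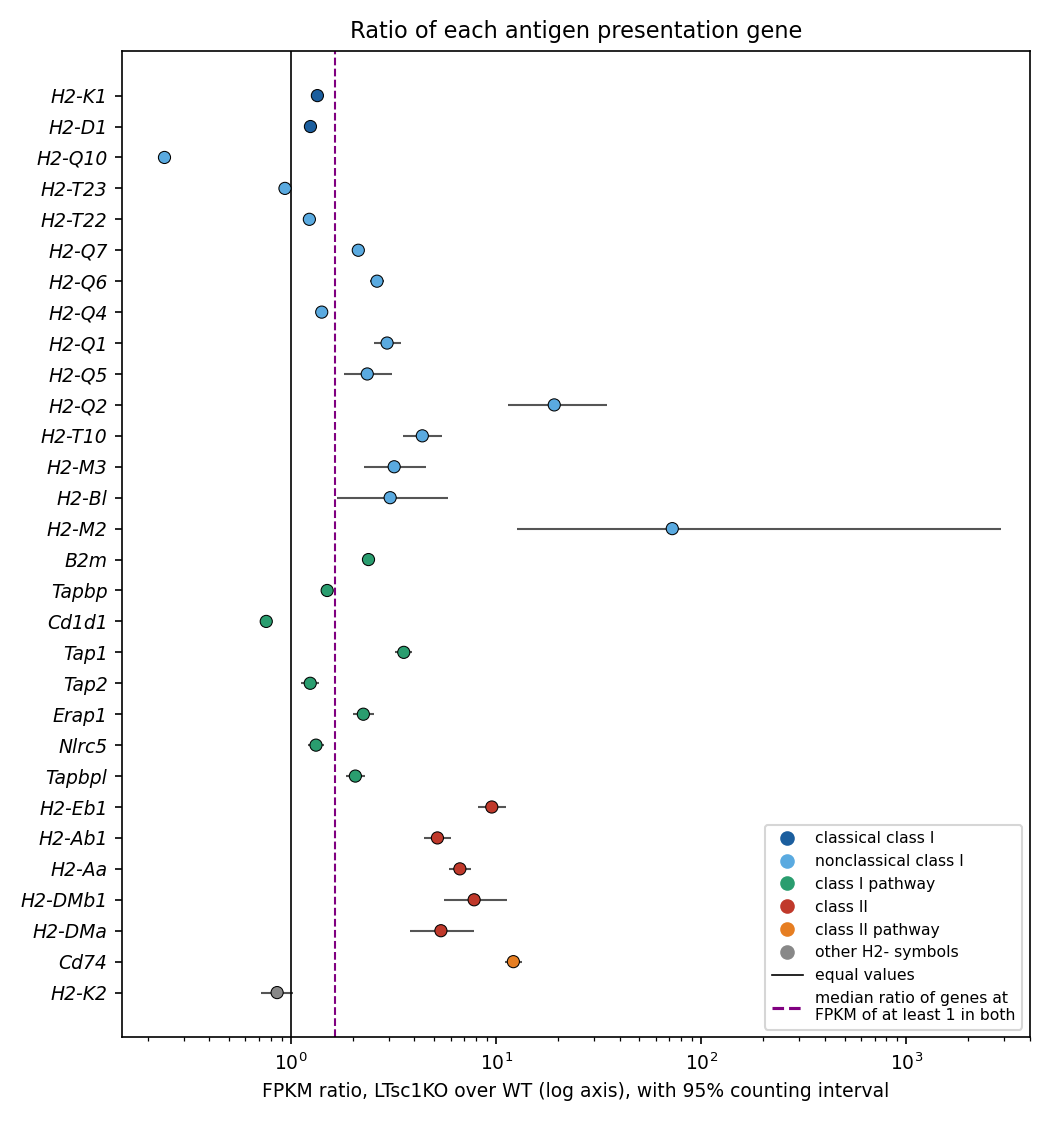
FPKM ratio, LTsc1KO over WT (log axis), of the 30 expressed genes, with 95% counting intervals (bars) that do not cover variation between animals; the black line marks equal values and the dashed line the median ratio of genes that reach an FPKM of 1 in each library. Class II genes and Cd74 all lie right of the dashed line, H2-K1 and H2-D1 lie between both lines, and H2-Q10 lies at 0.242.

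Genes around the class II pathway were described from lists. The class II processing list holds proteases that cut antigens and the invariant chain in endosomes. It also holds Ifi30, March1 and March8, which are not proteases. Of 7 expressed processing genes 6 were higher (85.7%, against 35.6% of all expressed genes) and none lower (median 1.97). On the centred scale 4 were higher, against 15.6% of all, and none lower. March8 was among the higher genes on the deposited scale (log2 ratio 1.25) but not on the centred scale (0.55). Lgmn, the asparaginyl endopeptidase legumain, was at 230 FPKM in the library labelled LTsc1KO and 24.3 FPKM in the library labelled WT (9.46-fold, 8.88 to 10.1). Ifi30, the lysosomal thiol reductase GILT, was at 79.3 FPKM in the library labelled LTsc1KO and 8.19 FPKM in the library labelled WT (9.68-fold, 8.44 to 11.2). Ctsl and Ctsd, cathepsins that many cell types use for general protein breakdown, were 5.03-fold (4.95 to 5.10) and 3.93-fold (3.84 to 4.02) higher. Ctss, the cathepsin most tied to antigen-presenting cells, was at 8.85 FPKM in the library labelled LTsc1KO and 3.94 FPKM in the library labelled WT, and its log2 ratio of 1.00 came just short of the limit.

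Among 7 class II regulators of the RFX, CREB and NF-Y groups 2 were higher (28.6%, below the 35.6% of all expressed genes) and none lower (median 0.76). On the centred scale 1 was higher and none lower. Rfx5, a subunit of the X1-binding complex, was at 6.04 FPKM in the library labelled LTsc1KO and 1.22 FPKM in the library labelled WT (4.96-fold, 3.84 to 6.48). Nfyc, a subunit of the CCAAT-binding factor, had a log2 ratio of 1.01, Creb1 of 0.82 and Nfya of 0.76, close to the median of all expressed genes.

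Cells that carry class II could not be counted in these data: in bulk tissue, more cells of a type and more RNA per cell cannot be told apart. The summed H2-Aa, H2-Ab1 and H2-Eb1 FPKM was 153 in the library labelled LTsc1KO and 22.8 in the library labelled WT, 6.72-fold higher. All 6 pan-leukocyte markers were expressed, 1 was higher (Rac2, log2 ratio 1.09) and none lower. Ptprc and Cd53 reached the minimum in the library labelled LTsc1KO alone, so neither could be called lower. On the centred scale 5 of the markers were expressed, without Cd53, and none was higher. They summed to 44.5 FPKM in the library labelled LTsc1KO and 36.8 FPKM in the library labelled WT. Ptprc, the leukocyte antigen CD45, was at 2.14 FPKM in the library labelled LTsc1KO and 0.918 FPKM in the library labelled WT, and Cd52 and Cd53 had log2 ratios of 0.86 and 0.38. The most abundant markers of the list, Laptm5 and Coro1a, had log2 ratios of -0.12 and 0.06. Laptm5 was at 18.3 FPKM in the library labelled LTsc1KO and 19.9 FPKM in the library labelled WT. The class II sum relative to a leukocyte marker was 2.88-fold higher in the library labelled LTsc1KO with Ptprc as the marker, 7.32-fold with Laptm5 and 6.39-fold with Coro1a.

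Of 10 Kupffer cell and macrophage markers 8 were expressed, 2 were higher and 1 was lower, or 1 and 2 on the centred scale. The list summed to 125 FPKM in the library labelled LTsc1KO and 55.6 FPKM in the library labelled WT. Cd68, a lysosomal membrane protein of macrophages, was at 52.3 FPKM in the library labelled LTsc1KO and 1.32 FPKM in the library labelled WT (log2 ratio 4.52), and C1qb had a log2 ratio of 1.39. Marco, a scavenger receptor, was at 0.505 FPKM in the library labelled LTsc1KO and 3.37 FPKM in the library labelled WT (log2 ratio -1.54). Csf1r, the receptor for macrophage colony-stimulating factor, was at 4.59 FPKM in the library labelled LTsc1KO and 1.94 FPKM in the library labelled WT. Clec4f, a Kupffer cell lectin, was at 11.7 FPKM in the library labelled LTsc1KO and 13.5 FPKM in the library labelled WT. The class II sum relative to each marker moved with the marker chosen. It was 33.4 times Csf1r in the library labelled LTsc1KO and 11.8 times in the library labelled WT, but 2.93 times Cd68 in the library labelled LTsc1KO and 17.3 times in the library labelled WT.

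Of 9 dendritic cell markers 2 were expressed, Zbtb46 and Batf3, with log2 ratios of 0.45 and -0.04. Zbtb46 reached the minimum in the library labelled LTsc1KO alone. The list summed to 4.90 FPKM in the library labelled LTsc1KO and 2.72 FPKM in the library labelled WT. Itgax, which encodes CD11c, was below the minimum at 0.825 FPKM in the library labelled LTsc1KO and 0.0708 FPKM in the library labelled WT. Its ratio was 11.65 (4.27 to 44.5), from 49 and 4 reads. Also below the minimum were Cd209a, at a ratio of 12.4 (1.86 to 525.5), and Flt3 and Ccr7, each at 3.8 (1.23 to 15.6). Intervals of Xcr1, Clec9a and Siglech spanned equal values. The class II sum was 185.8 times Itgax in the library labelled LTsc1KO and 322.3 times in the library labelled WT. None of 8 B cell markers was expressed, and they summed to 1.31 FPKM in the library labelled LTsc1KO and 2.06 FPKM in the library labelled WT. Of 4 monocyte markers 2 were expressed, Ly6c2 and Ccr2, with log2 ratios of -0.63 and 0.56. Ly6c2 reached the minimum in the library labelled WT alone and Ccr2 in the library labelled LTsc1KO alone. The list summed to 3.33 FPKM in the library labelled LTsc1KO and 1.96 FPKM in the library labelled WT. Below the minimum, Cx3cr1 and Fcgr1 had ratios of 6.115 (3.46 to 11.6) and 4.08 (1.755 to 11). Of 6 sinusoidal endothelial markers 4 were expressed and 2 were higher, Lyve1 and Stab2, with log2 ratios of 1.09 and 1.04, against 0.29 for Clec4g and -0.42 for Pecam1. Lyve1 and Clec4g reached the minimum in the library labelled LTsc1KO alone. On the centred scale 2 of these markers were expressed, Stab2 and Pecam1, and neither was higher. Clec4g, at -0.08 there, fell below the minimum, as did Lyve1. Their sums were 33.6 FPKM in the library labelled LTsc1KO and 17.7 FPKM in the library labelled WT. The part of these cell types in the class II values was not tested.

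**Figure D3:**
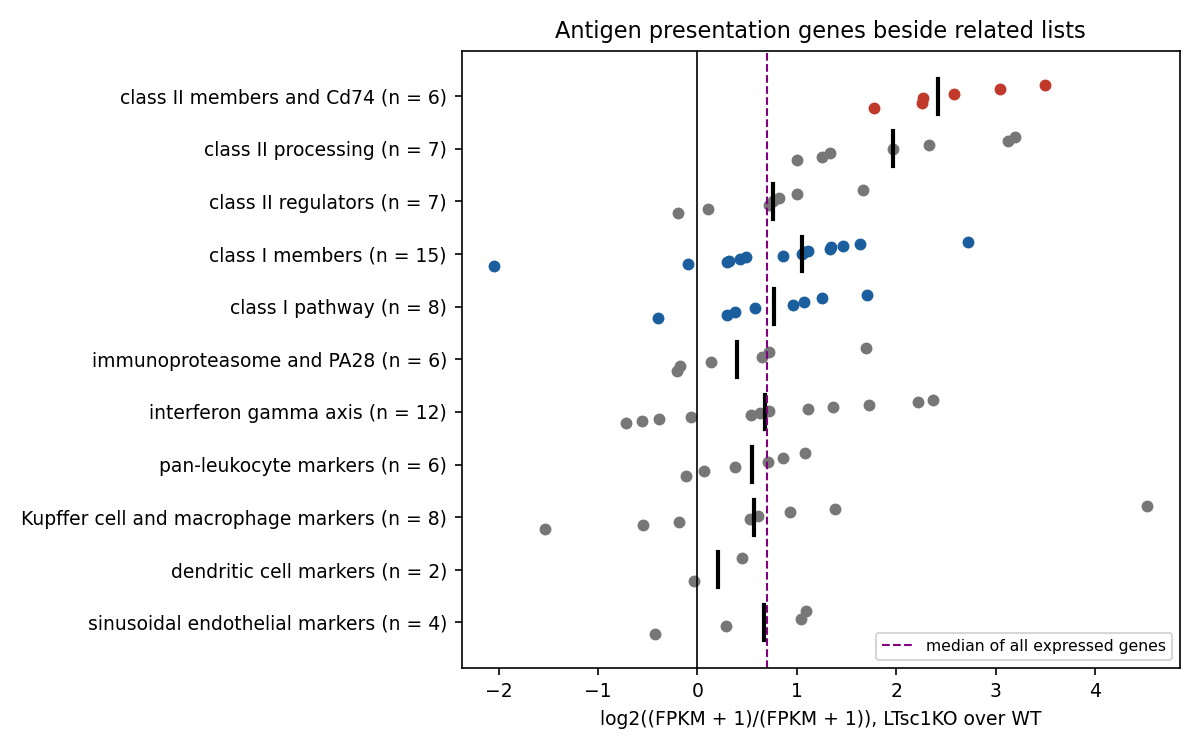
Log2 ratios, LTsc1KO over WT, of the expressed genes of each list (points; number in brackets) with the list's median (black bar), beside the median of all expressed genes (dashed line, 0.70). The class II genes and class II processing genes lie right of the dashed line without exception, whereas class I genes, the immunoproteasome list and the leukocyte and macrophage markers lie on both sides of it.

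The classical class I heavy chains were among the most abundant transcripts of both libraries and neither passed 2-fold. H2-K1 was at 2084 FPKM in the library labelled LTsc1KO and 1549 FPKM in the library labelled WT, a ratio of 1.34 (1.33 to 1.36) and a log2 ratio of 0.43. H2-D1 was at 1219 FPKM in the library labelled LTsc1KO and 980 FPKM in the library labelled WT, a ratio of 1.24 (1.22 to 1.26) and a log2 ratio of 0.31. Both lay below the median ratio of expressed genes, and on the centred scale both turned negative, at -0.29 and -0.40. The ratio of H2-K1 to H2-D1 was 1.71 in the library labelled LTsc1KO and 1.58 in the library labelled WT, so the pair kept similar proportions.

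H2-Q10 was the single nonclassical gene called lower. It encodes a secreted class I molecule that is made chiefly by the liver and circulates in serum. H2-Q10 (ENSMUSG00000067235; chr17:35470089-35474563, plus strand, GRCm38 in GENCODE M21) was at 238 FPKM (18114 reads) in the library labelled LTsc1KO and 984 FPKM (71318 reads) in the library labelled WT, 4.14-fold lower (4.07 to 4.21; log2 ratio -2.04). Only 2.16% of expressed genes had a lower ratio, and on the centred scale the log2 ratio was -2.76. By FPKM it ranked 474 among all genes in the library labelled LTsc1KO and 96 in the library labelled WT, where its level was close to that of H2-D1. Of 6 hepatocyte markers 2 were lower and none higher, Alb at -1.37 and Serpina1a at -1.11, while Ttr stood at 1.00 just under the limit and Tat at -0.76; on the centred scale 4 were lower. The list summed to 23780 FPKM in the library labelled LTsc1KO and 34855 FPKM in the library labelled WT, and its part in the H2-Q10 value was not tested.

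Of the other genes of the Q cluster 5 were called higher on the deposited scale. H2-Q7, which encodes the nonclassical antigen Qa-2, was at 88.2 FPKM (4713 reads) in the library labelled LTsc1KO and 41.4 FPKM (2106 reads) in the library labelled WT, 2.13-fold higher (2.02 to 2.24; log2 ratio 1.07). H2-Q6, a close copy of H2-Q7, was at 47.8 FPKM (2151 reads) in the library labelled LTsc1KO and 18.2 FPKM (779 reads) in the library labelled WT, 2.63-fold higher (2.42 to 2.85; log2 ratio 1.35). H2-Q2 was at 8.56 FPKM (303 reads) in the library labelled LTsc1KO and 0.445 FPKM (15 reads) in the library labelled WT, 19.2-fold higher (11.5 to 34.8; log2 ratio 2.73). H2-Q2 therefore had the highest log2 ratio of any class I gene, from a low level in the library labelled WT.

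H2-Q1 was at 10.6 FPKM in the library labelled LTsc1KO and 3.60 FPKM in the library labelled WT (log2 ratio 1.33), and H2-Q5, annotated as a polymorphic pseudogene, was at 8.70 FPKM in the library labelled LTsc1KO and 3.70 FPKM in the library labelled WT (log2 ratio 1.05). H2-Q4 was at 45.5 FPKM in the library labelled LTsc1KO and 32.3 FPKM in the library labelled WT, with a log2 ratio of 0.48 that did not pass and was -0.21 on the centred scale. H2-Q3 was listed at 0 in both libraries. On the centred scale H2-Q7, H2-Q6, H2-Q1 and H2-Q5 stood at 0.37, 0.65, 0.70 and 0.42 and no longer counted as higher, whereas H2-Q2 did, at 2.10. The 7 H2-Q genes other than H2-Q10 summed to 209 FPKM in the library labelled LTsc1KO and 99.6 FPKM in the library labelled WT, and all 8 summed to 447 FPKM in the library labelled LTsc1KO and 1083 FPKM in the library labelled WT. The sum of the whole cluster was thus lower, while 5 of its 8 genes were called higher on the deposited scale.

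Copies of the Q cluster share sequence, and the sources used here do not say how reads that match several genes were treated. Of the 50-base words of the annotated H2-Q7 transcripts 26.5% occurred in another gene, as did 35% of those of H2-Q6, 36.4% for H2-Q4 and for H2-Q5, 19.1% for H2-Q10 and 16.1% for H2-Q2. H2-Q10 and H2-Q7 share 14% of their words with each other. Values of these genes are therefore uncertain to that extent. The part of shared words in the opposite directions of H2-Q10 and H2-Q7 was not tested.

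In the T region the levels were closer. H2-T23, which encodes Qa-1, the ligand of NKG2A receptors, was at 129 FPKM in the library labelled LTsc1KO and 138 FPKM in the library labelled WT, a ratio of 0.935 (0.903 to 0.967) and a log2 ratio of -0.10 that became 0.08 with equal FPKM totals. H2-T22, a ligand of some gamma delta T cells, was at 100.4 FPKM in the library labelled LTsc1KO and 81.7 FPKM in the library labelled WT (log2 ratio 0.29, or -0.41 on the centred scale). H2-T10, its close relative, was at 7.36 FPKM (473 reads) in the library labelled LTsc1KO and 1.68 FPKM (103 reads) in the library labelled WT, 4.37-fold higher (3.52 to 5.46; log2 ratio 1.64). More than any other expressed class I genes, H2-T22 and H2-T10 shared words with other genes, 53.5% and 50.4% of their own, of which 31.2% and 31.7% with each other, so their separate values carry that uncertainty. H2-Bl was at 2.02 FPKM in the library labelled LTsc1KO and 0.663 FPKM in the library labelled WT (log2 ratio 0.86).

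Genes of the M region were scarce. H2-M3, which presents formylated peptides of bacteria and mitochondria, was at 3.65 FPKM (154 reads) in the library labelled LTsc1KO and 1.15 FPKM (46 reads) in the library labelled WT, 3.19-fold higher (2.28 to 4.53; log2 ratio 1.12). H2-M2 was at 1.82 FPKM (76 reads) in the library labelled LTsc1KO and 0.0252 FPKM (1 read) in the library labelled WT, a ratio of 72.3 (12.6 to 2893; log2 ratio 1.46). H2-T24 stayed below the minimum with 32 reads in the library labelled LTsc1KO and 10 reads in the library labelled WT, H2-M10.6 had 1 read in the library labelled LTsc1KO, and 11 nonclassical symbols, among them 5 of the H2-M10 group, were listed at 0 in both libraries. In all 13 of 26 nonclassical symbols were expressed (median 1.07), of which 8 were higher (61.5%, against 35.6% of all expressed genes) and 1 lower. On the centred scale (median 0.42) 3 were higher, H2-Q2, H2-T10 and H2-M2, against 15.6% of all, and 1 was lower. H2-Q2, H2-M2 and H2-Bl reached the minimum through the library labelled LTsc1KO alone, so none of these could be called lower.

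Summed as a single pool, class I heavy chain FPKM hardly differed on the deposited scale. The 28 classical and nonclassical symbols summed to 3995 FPKM in the library labelled LTsc1KO and 3836 FPKM in the library labelled WT, a ratio of 1.04, or a log2 ratio of -0.66 on the centred scale. The make-up of the pool differed, and shares within a library do not depend on its scaling. Sums and shares do depend on the transcript length used for each gene. By reads H2-Q10 was the largest heavy chain in the library labelled WT. It had 71318 reads there, against 43593 (estimated) for H2-K1 and 24726 for H2-D1. In the library labelled LTsc1KO these genes had 18114, 61656 (estimated) and 32336 reads. H2-K1 made up 52.2% of the pool in the library labelled LTsc1KO and 40.4% in the library labelled WT. H2-D1 made up 30.5% in the library labelled LTsc1KO and 25.5% in the library labelled WT. H2-Q10 made up 5.95% in the library labelled LTsc1KO and 25.6% in the library labelled WT, which is the secreted heavy chain. The class II chains H2-Aa, H2-Ab1 and H2-Eb1 together amounted to 3.84% of the class I pool in the library labelled LTsc1KO and 0.595% in the library labelled WT.

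**Figure D4:**
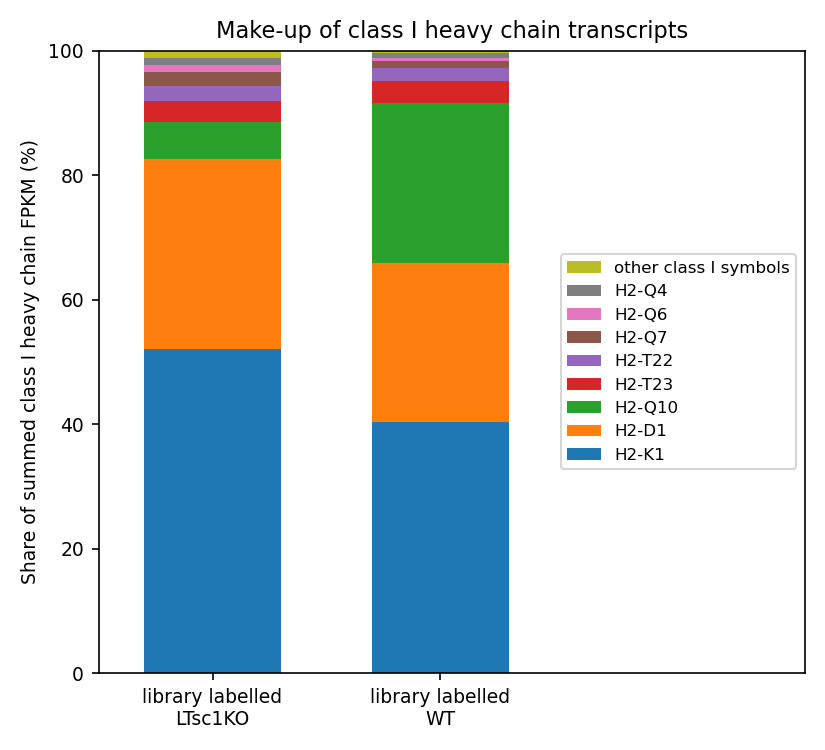
Share of the summed class I heavy chain FPKM (%) that each gene took, in the library labelled LTsc1KO (left bar) and the library labelled WT (right bar). H2-Q10 takes 5.95% in the library labelled LTsc1KO and 25.6% in the library labelled WT, and H2-K1 takes 52.2% and 40.4%.

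B2m, the light chain that class I heavy chains need, differed more than the pool of heavy chains. B2m was at 4022 FPKM in the library labelled LTsc1KO and 1685 FPKM in the library labelled WT, 2.39-fold higher (2.36 to 2.42; log2 ratio 1.25), and ranked 21 by FPKM among all genes in the library labelled LTsc1KO and 56 in the library labelled WT. On the centred scale its log2 ratio was 0.54 and did not pass. The ratio of B2m to the summed heavy chains was 1.01 in the library labelled LTsc1KO and 0.439 in the library labelled WT. That is a 2.29-fold difference which no scaling of a library can change.

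Tap1 and Tap2 encode the subunits of the peptide transporter, and they differed unequally. Tap1 was at 28.3 FPKM (1965 reads) in the library labelled LTsc1KO and 7.99 FPKM (527 reads) in the library labelled WT, 3.55-fold higher (3.22 to 3.91; log2 ratio 1.71). Tap2 was at 20.3 FPKM in the library labelled LTsc1KO and 16.3 FPKM in the library labelled WT, a ratio of 1.24 (1.12 to 1.38) and a log2 ratio of 0.30, or -0.38 on the centred scale. The ratio of Tap1 to Tap2 was 1.399 in the library labelled LTsc1KO and 0.489 in the library labelled WT. Tap1 was the single class I pathway gene that stayed higher on the centred scale, at 1.02.

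Psmb9, a catalytic subunit of the immunoproteasome, starts 225 bases from Tap1 on the other strand, a pair known to share a bidirectional promoter. Psmb9 was at 55.4 FPKM in the library labelled LTsc1KO and 16.5 FPKM in the library labelled WT, 3.36-fold higher (3.05 to 3.72; log2 ratio 1.69). The ratio of Tap1 to Psmb9 was 0.511 in the library labelled LTsc1KO and 0.485 in the library labelled WT, whereas that of Psmb9 to its neighbour Psmb8 was 1.44 in the library labelled LTsc1KO and 0.716 in the library labelled WT. Exons of Tap1 overlap those of Psmb9 on the other strand over 3.87% of their length. Of the 6 immunoproteasome and PA28 genes Psmb9 alone was higher and none was lower (median 0.39), and none passed on the centred scale. Psmb8, Psme3 and Psme2 had log2 ratios of 0.72, 0.65 and -0.21, and Psme3 was at -0.05 on the centred scale. Of the constitutive subunits that these replace Psmb7 was at 1.13 and counted as higher, Psmb6 was at 0.44 and Psmb5 at -0.24. Psmb7 was at 0.42 on the centred scale and did not pass, and Psmb6 was at -0.27.

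Of the remaining class I pathway genes Erap1, the aminopeptidase that trims peptides in the endoplasmic reticulum, was at 17.3 FPKM in the library labelled LTsc1KO and 7.67 FPKM in the library labelled WT, 2.25-fold higher (1.995 to 2.55; log2 ratio 1.08), or 0.41 on the centred scale. Cast, which overlaps 11.5% of the exonic length of Erap1 on the other strand, was at 23.4 FPKM in the library labelled LTsc1KO and 5.75 FPKM in the library labelled WT. Other overlaps on the opposite strand were with genes at low level: those of H2-Q4 (19.1% of its exonic length) and Tap2 (14.1%) were at 1.15 and 0.253 FPKM in the library labelled LTsc1KO and 0.62 and 0.0296 FPKM in the library labelled WT, and those of H2-T10, H2-T22 and Tapbp were listed at 0 in both. Tapbpl, a peptide editor, had a log2 ratio of 0.96, at 16.3 FPKM in the library labelled LTsc1KO and 7.90 FPKM in the library labelled WT. Tapbp, tapasin, which bridges class I to the transporter, had a log2 ratio of 0.58, at 201 FPKM in the library labelled LTsc1KO and 134 FPKM in the library labelled WT, or -0.13 on the centred scale. Nlrc5, the class I transactivator, was at 16.8 FPKM in the library labelled LTsc1KO and 12.7 FPKM in the library labelled WT, a ratio of 1.32 (1.21 to 1.44) and a log2 ratio of 0.38, or -0.29 on the centred scale. Nlrc5 was thus well above Ciita in both libraries.

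Cd1d1, which presents lipids to natural killer T cells, was the pathway gene with a negative ratio. It was at 113 FPKM in the library labelled LTsc1KO and 149 FPKM in the library labelled WT, a ratio of 0.757 (0.727 to 0.790) and a log2 ratio of -0.40; on the centred scale it was -1.11 and counted as lower. Cd1d1 shares 19.1% of its words with its copy Cd1d2. As a group the 8 class I pathway genes had a median of 0.77, with 3 higher (37.5%) and none lower, close to the median of 0.70 and the 35.6% of all expressed genes. On the centred scale 1 was higher and 1 lower, with a median of 0.083. Among the 5 loading chaperones, which serve many glycoproteins, Canx was higher (log2 ratio 1.09) and none was lower, with Ganab at 0.65, Uggt1 at 0.51 and Pdia3 at 0.34. None passed on the centred scale, where those 3 stood at -0.05, -0.18 and -0.38.

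Of the 4 other H2- symbols H2-K2, annotated as a pseudogene, was expressed, at 7.57 FPKM in the library labelled LTsc1KO and 8.84 FPKM in the library labelled WT (log2 ratio -0.20; ratio 0.856, interval 0.714 to 1.02). H2-Ke6, an enzyme gene of the hydroxysteroid dehydrogenase family and no presentation molecule, had 1 read in the library labelled LTsc1KO and 2 reads in the library labelled WT. It shares 70.5% of its 50-base words with Gm20427, so its reads carry that uncertainty. H2-Pa and H2-Pb were listed at 0 in both libraries.

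The expressed genes of the MHC region gave a local background for the set. Between the outermost H2- genes of the set (chr17:33974659-37483552, 3.51 Mb) lay 99 expressed genes, 23 from the set and 76 others. Of the 23 antigen presentation genes 14 were higher (60.9%) and 1 lower, with a median of 1.12, or 0.59 on the centred scale. Of the 76 others 16 were higher (21.1%) and 1 lower, with a median of 0.45, or -0.19 on the centred scale. Calls in this region were counted on the deposited scale alone. The others include H2-T-ps and H2-M6-ps, which the naming rule left out of the set, at log2 ratios of 3.56 and 0.99. Within the class II interval (chr17:34092340-34341412) 3 other genes were expressed, Brd2, Psmb9 and Psmb8, at log2 ratios of 0.50, 1.69 and 0.72. The highest log2 ratio in the region belonged to Ubd, the ubiquitin-like modifier FAT10, at 7.45. Higher ratios thus were not shared by the whole region, and H2-Q10 stood next to neighbours of the opposite sign.

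**Figure D5:**
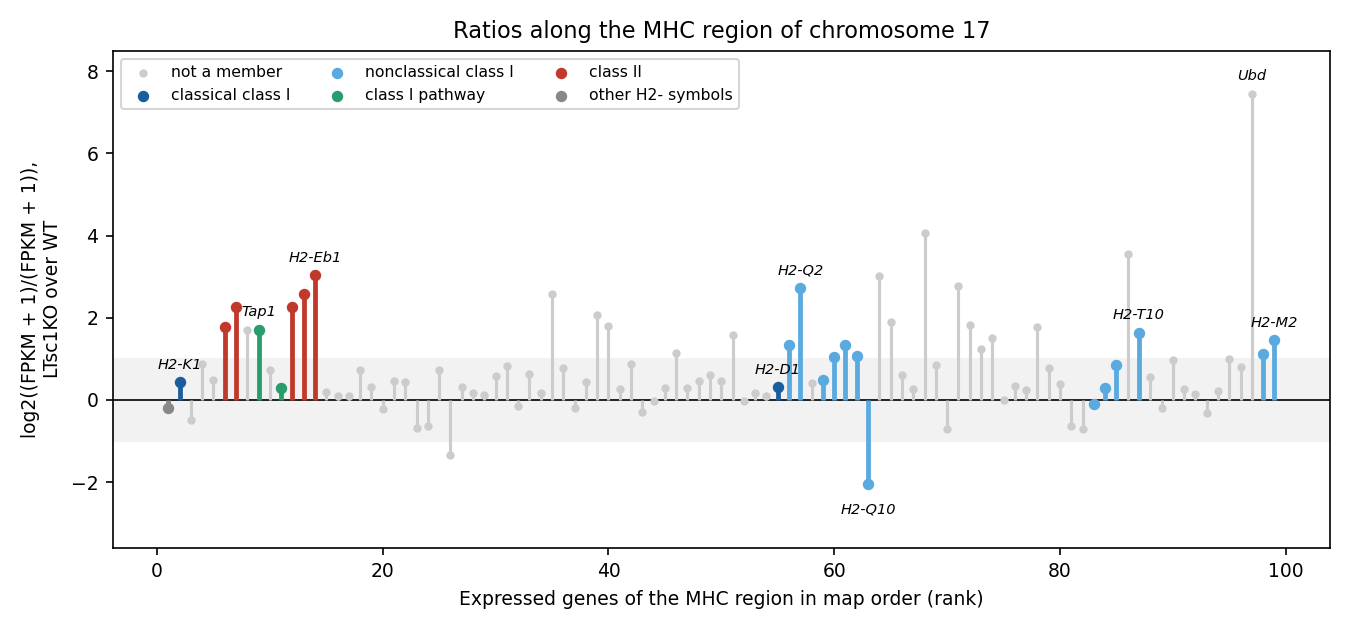
Log2 ratio, LTsc1KO over WT, of the 99 expressed genes between the outermost H2- genes, in map order (rank, not distance); colours mark the antigen presentation genes by role, light grey lines are other genes and the shaded band lies within 2-fold. The class II genes at the left reach 1.77 to 3.04, H2-Q10 drops to -2.04 beside higher Q genes, and Ubd reaches 7.45.

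Interferon gamma raises both classes of presentation genes, so genes of its axis were read beside them. Of 12 expressed genes of that list 5 were higher (41.7%, against 35.6% of all expressed genes) and none lower (median 0.68), or 3 and 2 on the centred scale. Ifngr1, a receptor chain, was at 62.5 FPKM in the library labelled LTsc1KO and 11.3 FPKM in the library labelled WT (log2 ratio 2.37), and the second chain Ifngr2 had a log2 ratio of 1.37. The kinase Jak1 had a log2 ratio of 1.73. The chemokine Cxcl10 was at 8.58 FPKM in the library labelled LTsc1KO and 1.06 FPKM in the library labelled WT (log2 ratio 2.21). The transcription factor Irf1 was at 35.0 FPKM in the library labelled LTsc1KO and 23.9 FPKM in the library labelled WT, a log2 ratio of 0.53 that did not pass 2-fold and was -0.16 on the centred scale. Log2 ratios were negative for Socs1 (-0.71), Irf2 (-0.56), Irf9 (-0.39) and Irf8 (-0.06), and on the centred scale Irf2 and Irf9 counted as lower. Ifng itself was below the minimum, at 0.0282 FPKM in the library labelled LTsc1KO and 0.0890 FPKM in the library labelled WT.

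The receptors that read these molecules were close to the limit of detection. None of 8 MHC receptor genes of T and NK cells was expressed, and they summed to 2.25 FPKM in the library labelled LTsc1KO and 1.79 FPKM in the library labelled WT. None of 7 T cell markers was expressed (sums of 3.27 FPKM in the library labelled LTsc1KO and 1.74 FPKM in the library labelled WT), nor was any of 5 NK cell markers (0.244 and 0.268 FPKM), of which Ncr1 was listed at 0 in both. Below the minimum, Cd4, Cd3e and Cd247 had ratios of 4.04 (1.32 to 16.5), 3.57 (1.14 to 14.8) and 7.23 (2.84 to 23.5). Intervals of the other genes of these lists that had reads spanned equal values. Of 8 co-stimulatory and checkpoint genes 2 were expressed, both of which reached the minimum through the library labelled LTsc1KO alone, so that their count says nothing about the list. Neither was called higher on the centred scale. Icosl was at 3.73 FPKM in the library labelled LTsc1KO and 0.715 FPKM in the library labelled WT (log2 ratio 1.46), and Cd40, a receptor of antigen-presenting cells, was at 1.66 FPKM (53 reads) in the library labelled LTsc1KO and 0.165 FPKM (5 reads) in the library labelled WT (log2 ratio 1.19).

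Relatives of class I outside the H2 cluster differed gene by gene. Of 4 expressed genes Mr1, which presents vitamin B metabolites to mucosal-associated invariant T cells, was higher, at 6.78 FPKM in the library labelled LTsc1KO and 1.198 FPKM in the library labelled WT (5.66-fold, 4.49 to 7.22; log2 ratio 1.82). Fcgrt, the neonatal Fc receptor, had a log2 ratio of -0.55 and counted as lower on the centred scale at -1.25, and Hfe and Azgp1 had log2 ratios of 0.49 and -0.07, Hfe turning to -0.20 on the centred scale. Of 3 expressed ligands of the NK receptor NKG2D, which are stress-induced class I relatives, Ulbp1, which reached the minimum in the library labelled LTsc1KO alone, was at 4.56 FPKM (368 reads) in the library labelled LTsc1KO and 0.0260 FPKM (2 reads) in the library labelled WT, a ratio of 175 (48.1 to 1451). Raet1d and Raet1e had log2 ratios of 0.09 and -0.06.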

How the data were processed

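Gene expression in 2 mouse livers was measured by RNA sequencing, 1 library per genotype. Per the file headers, the authors deposited FPKM per Ensembl gene in a table for each library. CASAVA 1.7, Bowtie 0.12.2 and the build mm8 are listed in the submitters' processing notes without their roles. The counting tool, annotation, strand and treatment of multiply matching reads: not given in the sources used here.

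Of 35275 gene IDs 34490 (97.8%) matched a symbol, and symbols carried by more than 1 ID (3 in all) were summed. Coordinates and lengths come from GENCODE M21 (GRCm38), which is not the authors' build. Most FPKM values were whole multiples of what 1 read is worth, which gave library totals and reads per gene. The tolerance was the rounding of the 8 printed decimals plus a relative 2e-08. Of 16964 genes above 0 in both libraries 51.1% came out whole at the mean annotated length. In 92.0%, these included, the values had a ratio of whole read numbers, scaled by the annotated length to the nearest multiple; for the rest reads were estimated from that length. Among the set's genes reads were obtained so for 35 of 38 above 0 and estimated for H2-K1, Erap1 and H2-Eb2. Of those 35 genes 18 came out whole at the mean annotated length and 17 at another length. The accuracy of the recovered read numbers in these libraries was not tested. Intervals are exact binomial (Clopper-Pearson), 95%.

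The ratio used a pseudocount of 1, which understates the difference of low genes. The genes and lists were chosen with earlier results of these data known. Every gene of the set at the minimum was named, and from each other list the 4 with the largest absolute log2 ratio, or all of a list with under 5 expressed genes; further genes named were chosen after their values were seen. No test was run, because each genotype has 1 library. Alternatives were other pseudocounts, filters, scalings, fold limits and summed copies. Promoter windows are RefSeq's, motif letters were chosen after the windows had been seen, and shared words were counted on GENCODE transcripts. Python 3.11.15, pandas 2.3.3 and scipy 1.17.1 were used.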

Additional observations from a re-analysis of the deposited data

How the results depend on the processing

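With 1 library per genotype the data cannot separate genotype from animal, and no library could be left out. No paired analysis was possible because each genotype has 1 library. The median log2 ratio of nonclassical class I genes, 1.07, became 1.39 with a pseudocount of 0.1, 0.49 with 5 and 0.42 with the median ratio set to 0. That of class II genes, 2.26, became 2.72, 1.91 and 1.63 under those settings and 1.77 over 9 genes with no filter. That of class I pathway genes, 0.77, became 0.083 with the median ratio set to 0 and 0.94 with equal FPKM totals. The 17 higher genes of the set became 10 with a pseudocount of 5, 10 with the median ratio set to 0 and 6 at a 4-fold limit, and the 1 lower gene became 2 with the median ratio set to 0. Over all expressed genes the 4411 higher became 2225, 1848 and 1098 under those settings, and the 762 lower became 459, 1504 and 283. Setting the median ratio to 0 changed the sign of 7 of 30 genes (H2-D1, H2-K1, H2-Q4, H2-T22, Nlrc5, Tap2 and Tapbp), and equal totals that of H2-T23. The median of the expressed H2-Q genes was 1.07, but their summed FPKM gave -1.28, a reversal by construction since H2-Q10 holds most of the sum in the library labelled WT. The sums gave 0.06 against a median of 0.77 for H2-K1, H2-D1, H2-Q and H2-T genes. Depth limits H2-M2, Ciita and Ulbp1, with 1 to 3 reads in the library labelled WT, and genes of a few reads in both such as H2-Oa. For H2-Ke6 shared words add to that limit.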

Other observations

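Symbols marked -ps, annotated copies outside the set, also differed. H2-T-ps was at 14.7 FPKM (461 reads) in the library labelled LTsc1KO and 0.336 FPKM (10 reads) in the library labelled WT, a ratio of 43.9 (23.6 to 92.1) and a log2 ratio of 3.56. H2-M6-ps was at 1.19 FPKM (36 reads) in the library labelled LTsc1KO and 0.104 FPKM (3 reads) in the library labelled WT, a ratio of 11.4 (3.61 to 57.9) and a log2 ratio of 0.99. H2-Ea-ps, the silent I-E alpha chain gene of this strain, had 1 read in the library labelled LTsc1KO and was listed at 0 in the library labelled WT. Of the 50-base words of H2-T23 transcripts 6.1% are shared with H2-T-ps.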
